A study of Mus musculus with 9 samples.

Results

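The genes described here are 44 mouse genes of DNA replication and S phase, listed by symbol for their function. Earlier results of these data were known when the list was made. The genes were looked up in a table of expression in invariant natural killer T (iNKT) cells. The table holds 14004 genes; it contained all 44, and all 44 were among the 13309 genes tested. They comprise 6 subunits of the MCM helicase, 8 genes of origin licensing and firing, 8 of the DNA polymerases and primase, 10 of the sliding clamp, its loader, single-strand binding and the lagging strand, 5 of nucleotide supply, 4 of chromatin and histone supply, and 3 regulators of entry into S phase.

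RNA-seq was made from iNKT1 cells, the iNKT subset that depends on the transcription factor T-bet, taken from thymus, liver and spleen, with 3 libraries from each tissue. Every library carries the same labels apart from the tissue: strain C57BL/6, genotype Tbx21CreTg;Rosa26-LSL-YFP+/+ and no treatment. In that genotype a Cre recombinase under the control of Tbx21, the gene of T-bet, switches on a yellow fluorescent protein, so the reporter marks cells that express or once expressed Tbx21. The age of the mice, the gate used to collect the cells, and whether a library pools animals or shares an animal with another are not given in the sources used here. Values are the authors' normalised read counts.

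Replication proceeds in an ordered set of steps. In G1 the origin recognition complex, Cdc6 and Cdt1 load the MCM hexamer onto DNA, and at the start of S phase Cdc45 and the GINS complex join it to form the active helicase. DNA polymerase alpha and primase then lay down primers, the polymerases epsilon and delta extend them with the help of the PCNA clamp, and many of the genes for these proteins are transcribed late in G1 under E2F factors. Developing iNKT cells divide extensively at early stages in the thymus and much less once mature.

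The libraries differed in depth and content. Recovered reads per library ran from 3877694 in liver replicate 3 to 39568081 in spleen replicate 3, and genes with at least 1 read from 10476 in thymus replicate 1 to 13038 in liver replicate 2. All 11 iNKT1 and T cell markers exceeded 3 reads in each tissue; Tbx21 lay between 1386 and 5762 and Cd3e, a subunit of the T cell receptor complex, between 25652 and 46800. Thymus replicate 3 stood apart from the other thymus libraries: Rag1, the recombinase of immature lymphocytes, was at 486, and Arpp21 and Dntt, both genes of immature thymocytes, were at 153 and 11.3, while in thymus replicates 1 and 2 Rag1 and Dntt had 0 reads and Arpp21 was at 0.02 and 5.82. Over the 7 measured markers of immature thymocytes the summed value was 66.3, 22.2 and 999 in thymus replicates 1, 2 and 3, 1162, 168 and 90.5 in the liver libraries, where Cd8a made up most of the highest sum, and 27.3, 104 and 44.7 in the spleen libraries. Summed values of the 5 measured myeloid markers ran from 0.1 to 16.5 in thymus, from 18.2 to 550 in liver and from 0.6 to 3133 in spleen, the highest being spleen replicate 1. The 7 hepatocyte markers summed to 110, 868 and 293 in thymus, where Trf made up most, to 1419, 1737 and 1448 in liver, where Alb did, and to 38.6, 40.5 and 0.5 in spleen, where Apoa1, Apoa2, Fgb and Ahsg had 0 reads. The 6 B cell markers summed to 3157, 5352 and 4301 in thymus, 8085, 6944 and 5471 in liver and 11322, 5260 and 9367 in spleen, most of it Ighm in each library, and Cd79a, Cd79b and Ms4a1 had 0 reads in thymus. Xist, the transcript of the inactive X chromosome, was at 96505, 84543 and 107736 in the libraries numbered 2 of thymus, liver and spleen, at 16531 in thymus replicate 3 and at 125 or less in the other 5, so sex also varies among the libraries.

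Promoters of the 44 genes were searched for what they share in sequence. RefSeq promoter windows (mouse build GRCm38.p6, 250 bases before to 50 after an annotated start) were matched by symbol for 36 of the 44. An E2F-type motif, that is TTTCCCGC, TTTCGCGC, TTTGCCGC or TTTGGCGC on either strand, lay in a window of 13 of the 36 genes (36.1%), against 440 of the 9133 tested genes with a window (4.8%) and 704 of all 27025 genes with a window (2.6%). The first of these words was in 6 of the 36 genes, the second in 6, the third in 0 and the fourth in 6. Of the 5 MCM helicase genes with a window, 4 held a match (80%), against 0 of 5 nucleotide supply genes and 2 of 9 genes of the clamp and lagging strand group (22.2%). The CCAAT word, on either strand, was in 21 of the 36 (58.3%) and in 43.1% of the tested genes, and TTTGAA, a word typical of genes expressed in G2 and mitosis, in 5 of the 36 (13.9%) and in 14.6% of the tested genes. Words can overlap, as a match on each strand does in Mcm5 and Mcm6 below. Stretches of 80 bases upstream of the start show where the matches sit, on the strand of the gene and with the matched bases in capitals. Mcm5 (chr8:75109322-75109401, plus strand), Mcm6 (chr1:128359741-128359820, minus strand), Pola1 (chrX:93632250-93632329, minus strand) and Uhrf1 (chr17:56304092-56304171, plus strand) are shown because a match lies upstream of an annotated start and no annotated exon covers the stretch. Rrm1 (chr7:102441615-102441694, plus strand) and Tyms (chr5:30073626-30073705, minus strand), both nucleotide supply genes without a match in the window, are shown beside them and have no capitals. The Uhrf1 stretch lies before the later of its annotated starts and inside the gene, which begins at chr17:56303321. The window at the earlier Uhrf1 start held no match.
Mcm5: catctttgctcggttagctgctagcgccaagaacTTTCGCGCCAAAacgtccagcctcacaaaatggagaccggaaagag
Mcm6: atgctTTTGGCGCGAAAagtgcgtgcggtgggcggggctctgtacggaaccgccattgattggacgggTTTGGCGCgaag
Pola1: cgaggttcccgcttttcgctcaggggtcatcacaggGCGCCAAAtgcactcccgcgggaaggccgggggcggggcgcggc
Uhrf1: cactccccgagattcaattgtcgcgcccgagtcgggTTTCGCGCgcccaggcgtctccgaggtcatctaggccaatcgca
Rrm1: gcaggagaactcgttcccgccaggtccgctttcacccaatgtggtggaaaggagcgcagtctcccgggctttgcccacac
Tyms: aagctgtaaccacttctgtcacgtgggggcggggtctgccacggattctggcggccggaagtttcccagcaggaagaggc

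**Figure D1:**
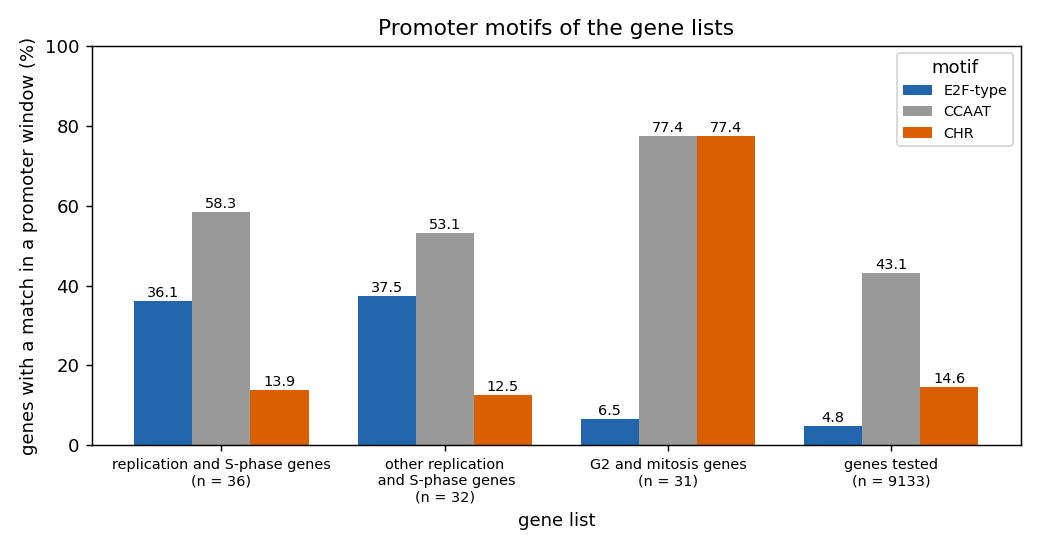
Share of genes (%, vertical axis) with a match of the E2F-type motif, CCAAT or TTTGAA (labelled CHR) in a RefSeq promoter window of 300 bases, for 4 lists with the number of genes that have a window. The E2F-type bar stands at 36.1% in the 44-gene list and 4.8% among tested genes, and the CHR bar is highest, at 77.4%, in the G2 and mitosis genes.

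Each library was first summarised by the mean of log2(value + 1) over the 44 genes. It was 6.66, 5.76 and 8.16 in thymus replicates 1, 2 and 3, 7.61, 8.28 and 8.65 in liver, and 6.90, 7.04 and 8.75 in spleen. Liver was thus the tissue with the highest average, 8.18 ± 0.52 (SD, n = 3), followed by spleen at 7.56 ± 1.03 and thymus at 6.86 ± 1.21, but the libraries of all 3 tissues overlapped. In bulk RNA, fewer cells in S phase and less of these transcripts per cell cannot be told apart. The difference was 1.32 between liver and thymus, 0.70 between spleen and thymus and 0.62 between liver and spleen, where the SD between thymus libraries was 1.21. Over all genes tested the same mean was 7.03 ± 0.42 in thymus, 7.61 ± 0.27 in liver and 7.63 ± 0.16 in spleen, and relative to it the differences were 0.74, 0.10 and 0.64. Single libraries moved these differences. Without thymus replicate 2 the liver to thymus difference was 0.77. The spleen to thymus difference was 0.15 without thymus replicate 2, 1.35 without thymus replicate 3 and 0.11 without spleen replicate 3. That between liver and spleen was 0.38 without liver replicate 3, 0.29, 0.36 and 1.21 without spleen replicates 1, 2 and 3. With only thymus replicate 3 left to represent the thymus, the library with Rag1 at 486, liver and thymus differed by 0.02 and spleen and thymus by -0.60. The part of immature thymocyte RNA in this was not tested. Summed hepatocyte markers were also higher in each liver library than in each thymus or spleen library, and summed B cell markers higher in each liver than in each thymus library; their part in the liver value was not tested.

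The sum of the 44 values, which the abundant genes dominate, ordered the tissues differently. It was 25840 ± 5295 in thymus, 28977 ± 5128 in liver and 23905 ± 6684 in spleen (SD, n = 3). With the log2 of the sum taken in each library and averaged by tissue, liver exceeded thymus by only 0.17. On that scale spleen lay below thymus by 0.13. In thymus replicate 2, 11 of the 44 genes had at most 3 reads (25%), against 5 in thymus replicate 1 (11.4%) and 1 in thymus replicate 3 (2.3%). There were 0 to 2 in the liver libraries and 0 to 5 in the spleen libraries. Of all genes tested, 25.2%, 24.1% and 13.1% had at most 3 reads in thymus replicates 1, 2 and 3. That share was 6.5% to 16.8% in the liver libraries and 7.6% to 13.5% in the spleen libraries. The count in thymus replicate 2 was thus near the share of all genes.

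**Figure D2:**
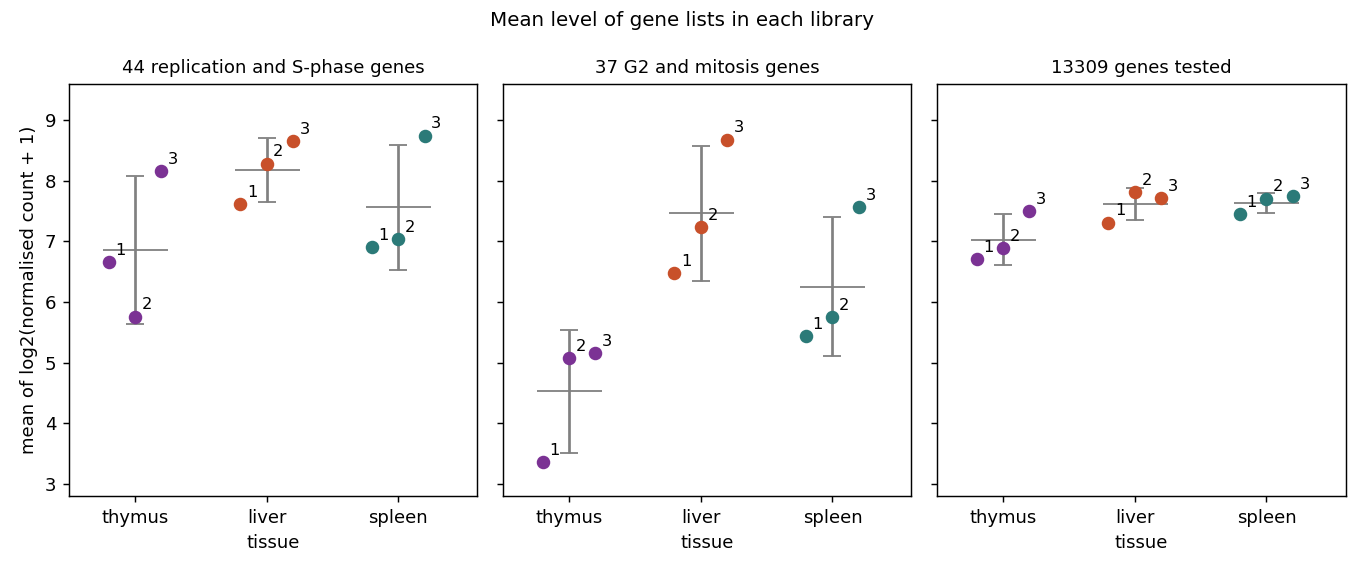
Mean of log2(normalised count + 1) in each library (points, numbered by replicate) for the 44 replication and S-phase genes, 37 G2 and mitosis genes and all 13309 genes tested; grey lines give the tissue mean ± SD of 3 libraries. The library numbered 3 is the highest of each tissue in the left panel, at 8.16, 8.65 and 8.75.

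None of the 44 genes passed an adjusted p of 0.05 in any comparison of tissues. Between liver and thymus, limma-trend with Benjamini-Hochberg adjustment over 13309 genes called 0 of the 44, with adjusted p of 0.262 or more, where 0.323% of all genes tested were called. At an unadjusted p under 0.05 there were 5 of 44 (11.4%, all higher in liver), beside 11.6% of all genes in either direction and 7.72% higher in liver. On recovered reads edgeR called 0 of the 44 (0.136% of all genes), with 2 at an unadjusted p under 0.05 (11% of all genes), and DESeq2 called 0 (3.98% of all genes), with 3 (15.3% of all genes); DESeq2 gave a p for 41 of the 44, the exceptions being Gins2, Mcm3 and Rfc4. The values of the 2 tissues did not overlap for 6 of the 44 (13.6%; Cdc6, Pola1, Pole, Rfc2, Rpa2 and Rrm2, all higher in liver), against 15.3% of all genes in either direction and 9.61% higher in liver. These shares were near the background. The fitted log2 fold change was above 0 for 35 of the 44 (79.5%, against 59.9% of all genes), with a median of 1.13 beside 0.29 over all genes, while in edgeR and DESeq2 the median of the 44 was 0.36 and 0.35. The added 1 shrinks limma's fold changes of genes with low values. With 0.5 or 4 added in its place, the limma median of the 44 was 1.2 or 1.04. Why the medians of edgeR and DESeq2 were lower was not tested.

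Between spleen and thymus limma-trend called 0 of the 44 (adjusted p of 0.299 or more), where 0.398% of all genes were called. At an unadjusted p under 0.05 limma found 3 of 44 (6.8%, against 11.7% of all genes), 1 higher in spleen (7.56% of all genes) and 2 lower (4.13%). edgeR also called 0 of the 44 (0.256% of all genes), with 3 at an unadjusted p under 0.05 (11.1%), and DESeq2 called 0 (4.4%), with 5 (15.3%). Values did not overlap for 3 genes (6.8%; Ccne1, Chaf1b and Pcna, higher in spleen), against 15.3% of all genes in either direction and 9.29% higher in spleen. Fold changes were above 0 for 31 of 44 (70.5%, against 61.2%), and their median was 0.58 beside 0.33 over all genes; in edgeR and DESeq2 the median of the 44 was 0.05 and 0.02. Both comparisons share the thymus libraries.

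Between liver and spleen limma-trend called 0 of the 44 and 0.015% of all genes. At an unadjusted p under 0.05 there were 2 of 44 (4.5%), both higher in liver, against 3.03% of all genes in either direction and 1.72% higher in liver. edgeR called 0 (0.016% of all genes), with 1 at an unadjusted p under 0.05 (2.7%), and DESeq2 called 0 (0.198%), with 1 (4.41%). The tissues did not overlap for 4 genes (9.1%; Mcm4, Mcm10, Pole2 and Rpa2, higher in liver), against 12.7% of all genes in either direction and 5.97% higher in liver. Fold changes were above 0 for 32 of 44 (72.7%, against 48.9%), with a median of 0.44 beside -0.02 over all genes, and of 0.25 in edgeR and 0.27 in DESeq2. The labels do not say whether the 3 libraries of a tissue came from separate animals. Their Xist levels differ within each tissue, so they are not all repeats of a single sample, and the p-values measure the spread between these libraries, which may be technical in part.

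**Figure D3:**
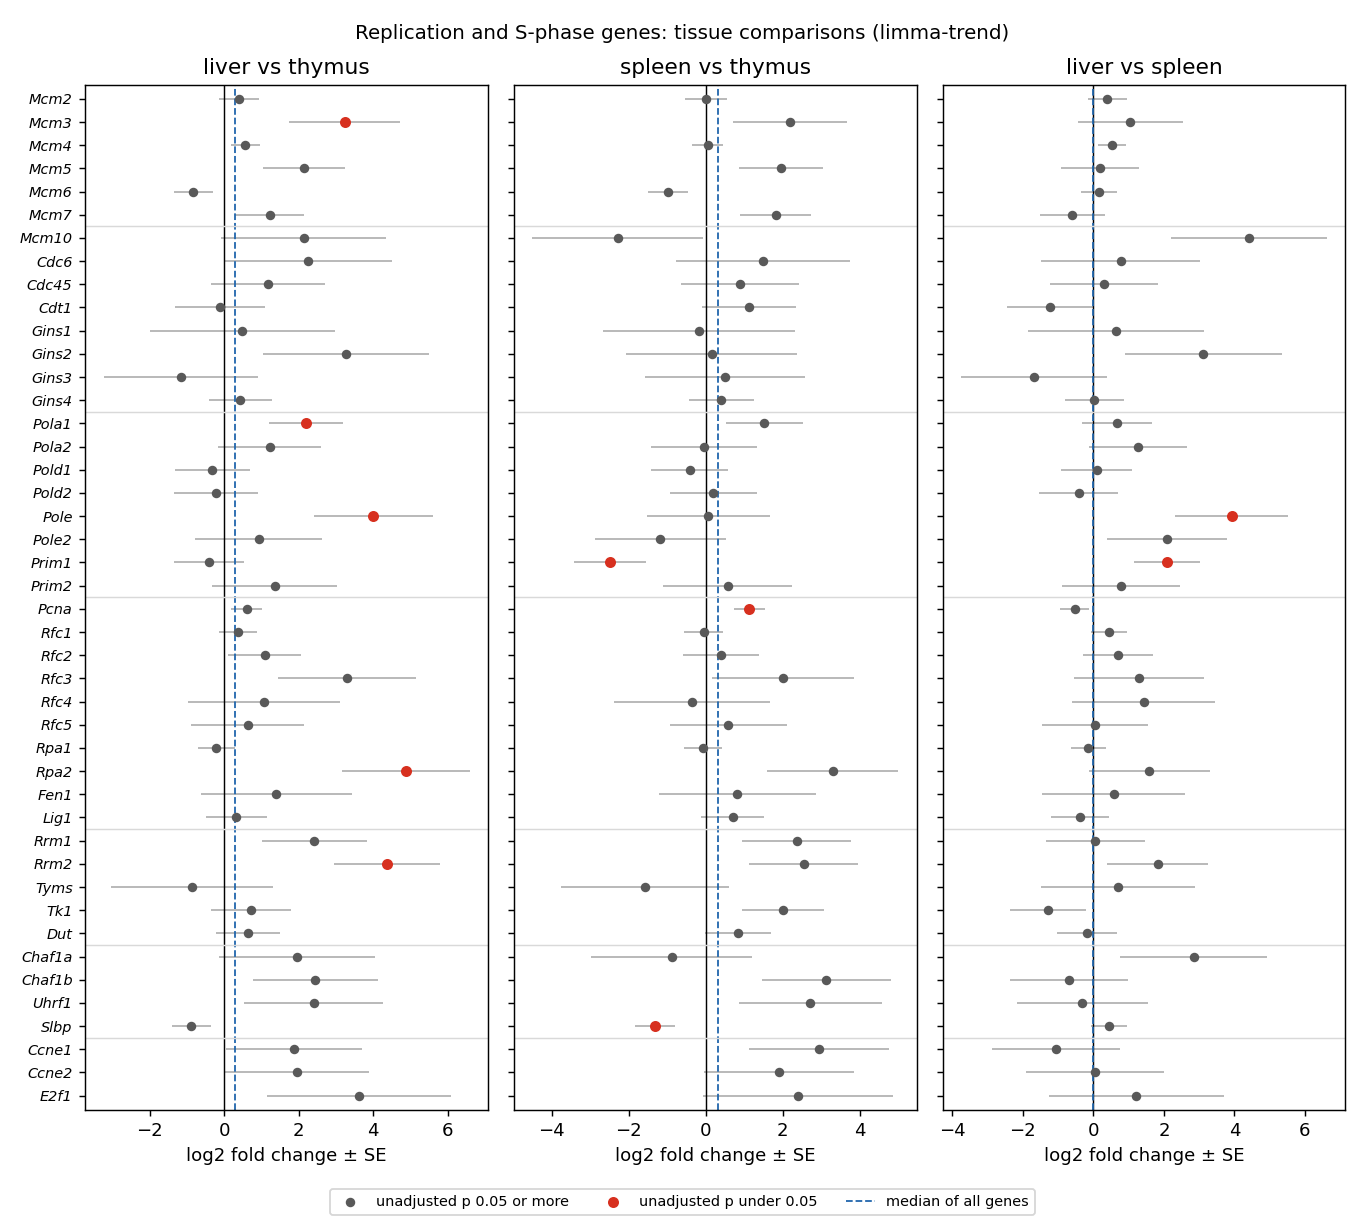
Log2 fold change ± SE (horizontal axis, limma-trend on log2(value + 1), 3 libraries a tissue) of each of the 44 genes in the 3 comparisons; red marks an unadjusted p under 0.05 and the dashed line the median of all genes tested (0.29, 0.33 and -0.02). Points lie mostly right of the dashed line between liver and thymus, with intervals several units wide for many genes.

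The MCM helicase is a ring of 6 related subunits, Mcm2 to Mcm7, that unwinds DNA ahead of the fork. Mcm2, which had among the narrowest ranges, was at 852, 2144 and 756 in thymus replicates 1, 2 and 3, at 1267, 1352 and 1859 in liver and at 1606, 713 and 1221 in spleen. Its tissue means were 1251 ± 775, 1493 ± 320 and 1180 ± 448 (SD, n = 3), and the 3 tissues overlapped. Mcm6 was at 2174, 6777 and 1898 in thymus, at 1079, 1866 and 2447 in liver and at 1589, 1172 and 1912 in spleen. Its highest value, thymus replicate 2, was 6.28 times its lowest, and its fold change was negative against thymus in liver (-0.83, limma adjusted p = 0.541) and in spleen (-0.99, adjusted p = 0.468).

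Mcm5 and Mcm7 were low in thymus replicates 1 and 2. Mcm5 was at 34.8, 111 and 1579 in thymus, at 736, 670 and 1084 in liver and at 1488, 406 and 597 in spleen. Mcm7 was at 52.7, 211 and 824 in thymus, at 358, 701 and 467 in liver and at 585, 819 and 849 in spleen. Thymus replicate 3 exceeded all liver and spleen libraries in Mcm5 and all but spleen replicate 3 in Mcm7, so the tissues overlapped. The spleen to thymus fold change of Mcm7 was 1.82 (SE 0.92, limma adjusted p = 0.462) and became -0.15 with thymus replicates 1 and 2 left out.

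Mcm3 had a wider range than the other 5 subunits. It was at 123.3, 5.81 and 3067 in thymus, at 1073, 940 and 2137 in liver and at 499, 479 and 1012 in spleen. Thymus held both its lowest and its highest value, 528-fold apart. Per kilobase of exon, thymus replicate 2 had Mcm3 at 1.55, Mcm5 at 27.8, Mcm7 at 47.6, Mcm2 at 308, Mcm4 at 802 and Mcm6 at 1453, so the subunits of this ring were measured at very unequal levels in that library. In liver replicate 2, by contrast, the lowest and the highest of the 6 on the same scale were Mcm7 at 158 and Mcm4 at 727. Mcm3 was singled out after its values were seen.

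Leaving out thymus replicate 3 changed the liver to thymus comparison for 2 genes. Mcm3 then had a log2 fold change of 5.47 (limma adjusted p = 0.0396) and Rpa2 of 7.02 (limma adjusted p = 0.0445), 2 of 44 genes, where 1.15% of all genes were called. With all 9 libraries the limma values of Mcm3 and Rpa2 were 3.23 (adjusted p = 0.417) and 4.88 (adjusted p = 0.294). On recovered reads of these 9 libraries they were lower. There edgeR gave 0.38 (adjusted p = 0.948) and 2.16 (adjusted p = 0.661), and DESeq2 gave 0.39, without a p, and 2.16 (adjusted p = 0.465). With thymus replicates 1 and 2 left out instead, the limma values were -1.25 and 0.60. The library that decides these calls is the one with Rag1, Arpp21 and Dntt, and what those cells or that RNA add to Mcm3 and Rpa2 was not tested.

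Origin licensing and firing genes were among the least abundant and most uneven. Mcm10, which helps activate the loaded helicase, was at 182, 0 reads and 194 in thymus replicates 1, 2 and 3, at 178, 78.9 and 212 in liver and at 0.70, 2.01 and 60.5 in spleen. Each liver library exceeded each spleen library, with a fold change of 4.42 (SE 2.21, limma adjusted p = 1.0), and thymus overlapped with both. Gins2, a subunit of the GINS complex, was at 0 reads, 162 and 10.1 in thymus, at 66.1, 153 and 159 in liver and at 15.6, 0 reads and 150 in spleen. Its liver to spleen fold change was 3.12 (SE 2.22, limma adjusted p = 1.0), with overlapping values. Exons of Gse1 on the opposite strand cover 67.3% of the exon bases of Gins2, and whether counting used the strand is not given in the sources used here, so the reads of Gins2 are uncertain.

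The other 6 genes of the group gave no clearer order of tissues. Gins1 had 0 reads in thymus replicate 2 and liver replicate 1 and reached 249 in thymus replicate 3. Gins3 had 0 reads in liver replicate 1 and 387 in thymus replicate 2, whereas Gins4 stayed between 131 and 1059. Per kilobase, Gins4 averaged 528 over the 9 libraries, against 47.8, 19.4 and 35.6 for Gins1, Gins2 and Gins3, with which it forms a complex of equal parts. The length used counts the exons of all annotated transcripts, so a gene with long minor transcripts may read too low. Cdc6, a loader of the helicase, ran from 0 reads in thymus replicate 3 and spleen replicate 2 to 386 in spleen replicate 3. Its liver values of 34.8, 31.7 and 97.9 lay above the thymus values of 31.4, 30.1 and 0.044, by a margin of less than 1 unit for the nearest pair. Cdt1, its partner in loading, ran from 48.6 to 713, and Cdc45 from 7.57 to 606. Limma's adjusted p for this group was 0.584 or more in each comparison.

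Polymerase genes included several with the lowest p of the list. Pole, the catalytic subunit of the leading-strand polymerase, was at 343, 5.81 and 202 in thymus replicates 1, 2 and 3, at 4307, 397 and 1127 in liver and at 14.9, 68.0 and 504 in spleen. Liver lay above thymus in every library, and liver replicate 1, with 4950 reads, stood far above the other 8 libraries. The fold change was 4.0 between liver and thymus (SE 1.60, limma adjusted p = 0.35) and 3.92 between liver and spleen (limma adjusted p = 1.0), where spleen replicate 3 overlapped with liver. Pole2, its accessory subunit, was at 245 in liver replicate 1 and did not share that peak.

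Pola1, the catalytic subunit of polymerase alpha, was at 444, 33.6 and 510 in thymus, at 570, 834 and 1562 in liver and at 252, 687 and 1072 in spleen. All liver values exceeded all thymus values, by a fold change of 2.19 (SE 1.0, limma adjusted p = 0.417). Spleen overlapped with both. Prim1, the catalytic subunit of primase, which works in a complex with Pola1, had another order. It was at 1787, 406 and 1401 in thymus, at 1482, 484 and 613 in liver and at 112, 67.4 and 756 in spleen. Spleen replicates 1 and 2 were below each thymus and liver library, and spleen replicate 3 was not. The fold change was -2.48 between spleen and thymus (SE 0.94, limma adjusted p = 0.315) and 2.08 between liver and spleen (limma adjusted p = 1.0).

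The remaining polymerase genes overlapped between tissues, apart from Pole2 between liver and spleen. Pold1 and Pold2, subunits of the lagging-strand polymerase, ranged over 8.0-fold and 8.11-fold, from 121 to 971 and from 68.7 to 557. Pola2 ran from 20.2 in thymus replicate 1 to 720 in thymus replicate 3. Prim2, the partner of Prim1, had 2 reads in thymus replicate 2 and 980 units in thymus replicate 3, and its liver values of 268, 295 and 304 had an SD of 18.7, the smallest of any tissue in this group.

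Pcna encodes the sliding clamp that holds polymerases on DNA. It was at 1207, 3241 and 1623 in thymus replicates 1, 2 and 3, at 2592, 2380 and 3616 in liver and at 3883, 3275 and 5274 in spleen. Each spleen library exceeded each thymus library, narrowly so for spleen replicate 2 against thymus replicate 2, and liver lay between and overlapped with both. Means were 2024 ± 1075, 2863 ± 661 and 4144 ± 1025 (SD, n = 3). The spleen to thymus fold change was 1.13 (SE 0.41, limma adjusted p = 0.299), and over 21 alternative settings it stayed between 0.82 and 1.54 with adjusted p from 0.0935 to 0.635. Of the sum of squares of log2 values, 56.0% lay between tissues, the largest share among the 44.

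Replication protein A coats single-stranded DNA, and its subunits behaved unequally. Rpa1, the large subunit, had the narrowest range of the 44 genes, 1.91-fold, with 1150, 961 and 1361 in thymus, 1296, 714 and 1061 in liver and 1207, 965 and 1127 in spleen. Rpa2, the middle subunit, was at 24.7, 0 reads and 440 in thymus, at 606, 523 and 931 in liver and at 165, 143 and 449 in spleen. Liver exceeded thymus and spleen in all libraries, and thymus replicate 3 lay close to spleen replicate 3. The liver to thymus fold change of Rpa2 was 4.88 (SE 1.71, limma adjusted p = 0.294).

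The clamp loader RFC has a large subunit, Rfc1, and 4 small ones. Rfc1 stayed between 785 and 2754 in all 9 libraries. Rfc2 ranged from 90.9 to 563, and its liver values of 311, 254 and 563 lay above its thymus values of 135, 137 and 248. Rfc3 ran from 1 read in thymus replicate 2 to 484 units in thymus replicate 3, Rfc4 from 1 read in thymus replicate 1 to 285 units in spleen replicate 3, and Rfc5 from 38.7 in spleen replicate 1 to 2000.4 in thymus replicate 2. In thymus replicate 2, Rfc5 thus had its highest and Rfc3 its lowest value. Lig1, the ligase that joins lagging-strand fragments, stayed between 222 and 746. Fen1, the nuclease that trims them, had 0 reads in 3 libraries and at most 64.4 in the others, and 84.2% of its exon bases lie under exons of Gm10143 and Tmem258 on the opposite strand, so its count is uncertain.

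Of the nucleotide supply genes, Rrm1, Rrm2 and Tyms had their lowest value of the 9 libraries in thymus replicate 2, and Tk1 and Dut had theirs in thymus replicate 1. Rrm2, the regulatory subunit of ribonucleotide reductase and a gene expressed mainly in S phase, was at 99.8, 2.34 (2 reads) and 197 in thymus, at 1384, 424 and 981 in liver and at 168, 115 and 669 in spleen. All liver values exceeded all thymus values, while spleen overlapped with both. Means were 99.7 ± 97.3, 930 ± 482 and 317 ± 305 (SD, n = 3), and the liver to thymus fold change was 4.36 (SE 1.42, limma adjusted p = 0.262), the lowest adjusted p among the 44 genes in any comparison. Over 21 alternatives it ranged from 2.07 to 5.5, always positive, with adjusted p from 0.075 to 0.556.

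Rrm1, the large subunit of the same enzyme, was at 248, 5.81 and 1756 in thymus, at 744, 658 and 927 in liver and at 1025, 349 and 1111 in spleen, so it did not separate the tissues. Tyms, which makes thymidylate, was at 851, 5.81 and 981 in thymus, at 7.81, 154 and 685 in liver and at 5.92, 56.3 and 553 in spleen. Its range was 169-fold, and tissue accounted for 4.8% of the sum of squares of its log2 values. Tk1, the thymidine kinase of S phase, was at 53.8, 124 and 703 in thymus, at 100, 274 and 782 in liver and at 499, 586 and 1072 in spleen. In Tyms and Tk1 the library numbered 3 was the highest of each tissue. Dut, which removes dUTP, ranged over 5.05-fold, from 122 to 618.

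Slbp, the protein that binds the stem-loop of histone messages, was at 4231, 3138 and 1139 in thymus replicates 1, 2 and 3, at 1509, 1468 and 1091 in liver and at 716, 1079 and 1245 in spleen. Thymus replicates 1 and 2 exceeded all liver and spleen libraries, and thymus replicate 3 did not. The spleen to thymus fold change was -1.32 (SE 0.52, limma adjusted p = 0.333), and over the alternatives it ran from -1.88 to -0.21. Chaf1b, a subunit of the chromatin assembly factor CAF-1, was at 40.4, 1.19 (1 read) and 67.7 in thymus, at 61.7, 194 and 79.9 in liver and at 99.8, 78.4 and 519 in spleen. Each spleen value exceeded each thymus value, with a fold change of 3.13 (SE 1.68, limma adjusted p = 0.485). Chaf1a, the large subunit, ran from 0 reads to 217, and exons of Ubxn6 on the opposite strand cover 52.5% of its exon bases. Uhrf1, which helps copy DNA methylation, had 0 reads in thymus replicate 1 and 39.1 to 461 in the other 8 libraries.

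Regulators of S-phase entry were rare. Cyclin E1, from Ccne1, was at 24.7, 0 reads and 41.4 in thymus, at 69.6, 23.1 and 31.5 in liver and at 61.8, 59.1 and 133 in spleen. All spleen values exceeded all thymus values (fold change 2.94, SE 1.82, limma adjusted p = 0.55). Cyclin E2, from Ccne2, was at 121, 0 reads and 41.4 in thymus, at 15.6, 115 and 158 in liver and at 122, 41.2 and 52.1 in spleen, with no separation. E2f1, a transcription factor that drives many genes of this list, had 0 reads in thymus replicates 1 and 2 and 404 in thymus replicate 3, was at 76.5, 42 and 237 in liver and at 60.3, 1.32 and 442 in spleen. Its library numbered 3 was again the highest of each tissue. In thymus replicate 2 all 3 of these genes had 0 reads out of 27706136. A count of 0 allows up to 3 reads, and such limits cover counting error only.

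**Figure D4:**
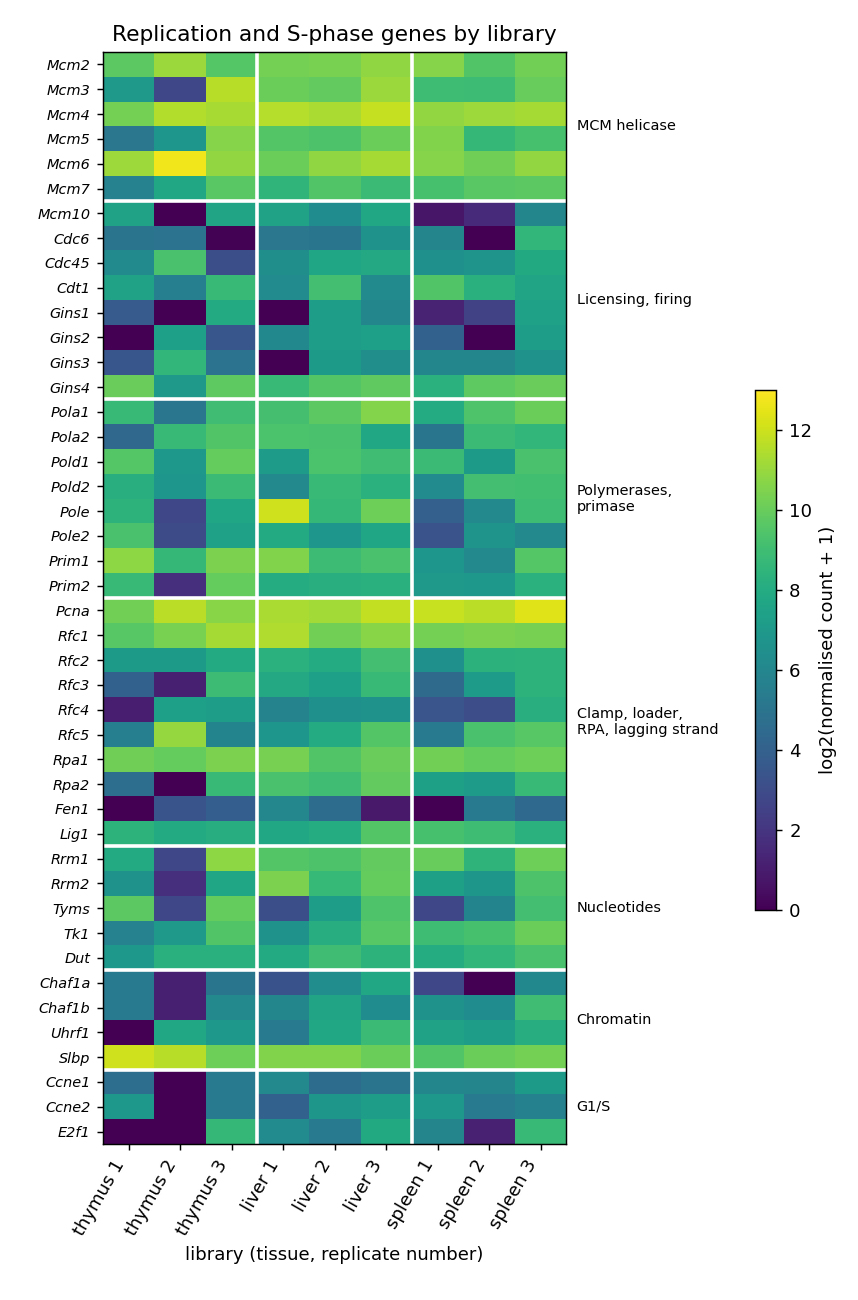
Log2(normalised count + 1) of the 44 genes (one per line, grouped by role) in the 9 libraries (columns), on a colour scale from 0 (dark) to 13 (yellow). Dark cells, genes with few or no reads, gather in the column of thymus replicate 2, where 11 of the 44 genes had at most 3 reads. They are fewest in liver replicate 2 and spleen replicate 3, where 0 did. Of all genes tested, 24.1%, 6.5% and 7.6% had at most 3 reads in these 3 libraries.

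The list divided into steady and patchy genes. Of the 44, 27 (61.4%) had more than 3 reads in all 9 libraries, close to the 60.6% of all tested genes, 17 fell to 3 reads or fewer in at least 1 library, and 12 had 0 reads in at least 1. Among the 27, 13 ranged over less than 10-fold: Mcm2, Mcm4, Mcm6, Pcna, Gins4, Pold1, Pold2, Rfc1, Rfc2, Rpa1, Lig1, Dut and Slbp. Another 4, namely Mcm3, Pole, Rrm1 and Tyms, ranged over more than 100-fold, and each had its lowest value in thymus replicate 2. The lowest value lay in a thymus library for 29 of the 44 genes and in thymus replicate 2 for 17. Thymus replicates 1 and 2 also had the lowest mean log2 value over all genes tested, 6.70 and 6.89. The shares of all genes were not counted for these fold ranges and lowest libraries, so such counts are not read as a trait of the list. The median SD within a tissue was 1.96 log2 units for the list and 1.31 for all genes tested.

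Libraries numbered 3 carried more transcripts of the 44 genes than the others of their tissue. The 44 genes took 1328, 1461 and 1332 RPM, reads scaled to the library total, in replicate 3 of thymus, liver and spleen, and 722 to 1043 in the other 6 libraries. The number 3 library was the highest of its tissue for 25 of the 44 genes in thymus (56.8%), 26 in liver (59.1%) and 33 in spleen (75.0%), against 38.5%, 32.2% and 32.2% of all genes tested. It was the highest in all 3 tissues for 11 of the 44 (25%), namely E2f1, Mcm3, Mcm10, Pola1, Prim2, Rfc2, Rfc3, Rpa2, Rrm1, Tk1 and Tyms, against 4.7% of all genes. Rescaling the libraries to equal totals, with or without the mitochondrial genes, or using RPM gave 13 to 14 of the 44, against 5.6% to 6.3% of all genes.

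The labels do not say what the replicate number marks, and this pattern was examined after the values had been seen. A median of 30.6% of the sum of squares of a member's log2 values lay between the 3 numbers and 23.8% between the 3 tissues, while over all genes tested the medians were 20.6% and 25.4%. Among the 9 libraries liver replicate 3 had the fewest and spleen replicate 3 the most reads. Of the 8 marker lists for this and other cell types, the myeloid list had its highest sum in the number 3 library in 2 of 3 tissues and the other 7 lists in 0 or 1. Immature thymocyte genes were high in thymus replicate 3 only among the thymus libraries, and their part in the thymus value was not tested. The G2 and mitosis genes were highest in the number 3 library for 37.8%, 67.6% and 70.3% of their 37 genes in thymus, liver and spleen. For 43 other replication genes, described below, those shares were 41.9%, 32.6% and 58.1%, and 7.0% were highest there in all 3 tissues. The median share between the numbers was 21.4% for these 43, near that of all genes. Summed, they took 1719, 1566 and 1536 RPM in the libraries numbered 3 and 1082 to 1454 in the others.

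Levels of different genes can be compared roughly per kilobase of exon, with the exons of all annotated transcripts of a gene counted in its length. On that scale Pcna was the most abundant member, with a mean of 1254 over the 9 libraries, higher than 95.8% of the genes compared. Mcm4 at 697, Gins4 at 528 and Mcm6 at 498 followed, then Slbp at 286 and Mcm3 at 276. The lowest were Chaf1a at 5.68, Fen1 at 7.84 and Mcm10 at 13.1. The G1/S regulators were all in the lower part, with E2f1 at 44.5, Ccne2 at 21.2 and Ccne1 at 18.6. Neighbours in this order mostly overlapped across libraries: Pcna ranged from 503 to 2197 and Mcm4 from 342 to 1036.

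**Figure D5:**
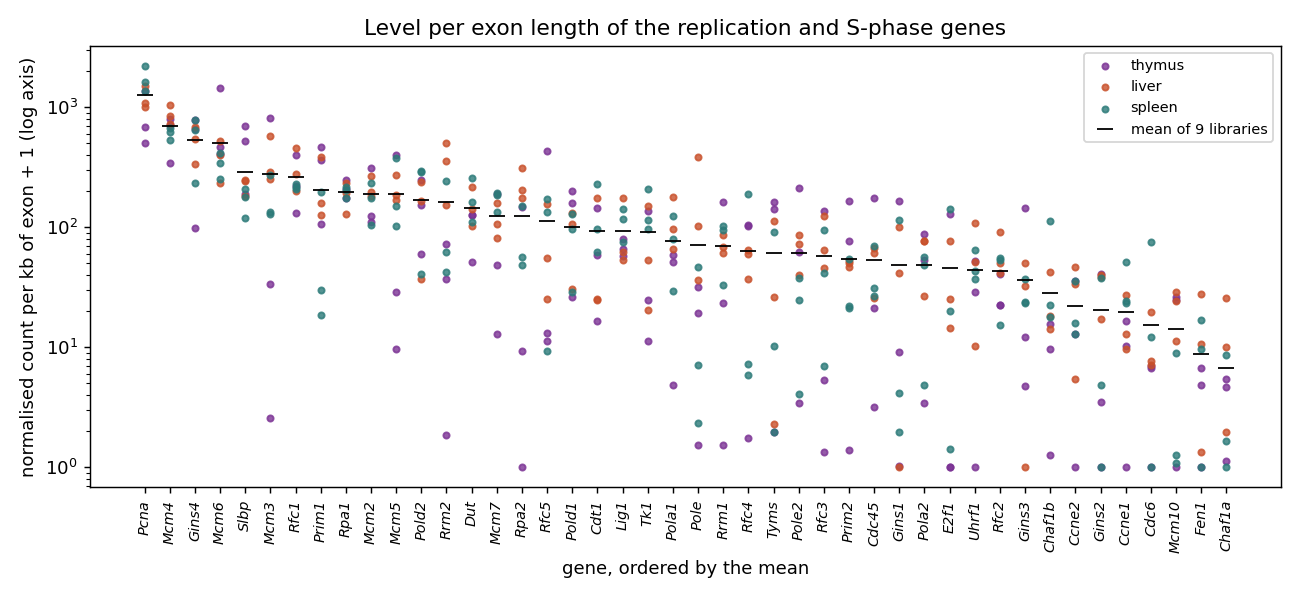
Normalised count per kilobase of exon + 1 (log axis) of the 44 genes in each of the 9 libraries (points, coloured by tissue), ordered by the mean of the 9 (black bars). Pcna, with a mean of 1254, stands at the left and Chaf1a, with a mean of 5.68 at the right.

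Related genes outside the list were read in the same fit. Of 43 other replication genes (origin recognition, checkpoint, remaining polymerase subunits and repair at the fork), limma-trend called 0 in each comparison. At an unadjusted p under 0.05 there were 7, 2 and 0 (16.3%, 4.7% and 0%) between liver and thymus, spleen and thymus, and liver and spleen; edgeR called 0 with 6, 3 and 0 and DESeq2 called 3, 2 and 0. For these counts and those of the lists that follow, the shares over all genes in the same order were 11.6%, 11.7% and 3.03% at an unadjusted p under 0.05 in limma, 11%, 11.1% and 2.7% in edgeR, and 3.98%, 4.4% and 0.198% for calls by DESeq2. Their median log2 fold changes were 0.71, 0.65 and 0.31. Ung, the glycosylase that removes uracil from DNA, was at 0 reads, 1.19 (1 read) and 31.4 in thymus, at 191, 207 and 544 in liver and at 43.9, 223 and 439 in spleen, so thymus lay below both other tissues. Its fold change was 6.07 between liver and thymus (SE 1.73, limma adjusted p = 0.195).

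Genes that act before S phase were listed apart. Of 25 genes of E2F factors, RB proteins and G1 cyclins and kinases, limma called 0, with 4, 4 and 2 (16%, 16% and 8%) at an unadjusted p under 0.05, edgeR called 0 with 2, 6 and 1, and DESeq2 called 0, 1 and 0. Rbl2, the RB relative p130 of resting cells, was at 9416, 3445 and 12503 in thymus, at 16408, 16609 and 13979 in liver and at 12010, 16609 and 18500 in spleen, so liver lay above thymus and thymus replicate 3 overlapped with spleen. Its fold change was 1.08 between liver and thymus (limma adjusted p = 0.276). Cdk4, a G1 kinase, was at 2949, 2885 and 2452 in thymus, at 1921, 2676 and 2253 in liver and at 993, 1432 and 796 in spleen, with spleen below both other tissues (spleen to thymus -1.40, limma adjusted p = 0.187).

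Of 16 listed inhibitors of cyclin-dependent kinases and quiescence genes, 13 were tested and limma called 0, with 3, 2 and 0 (23.1%, 15.4% and 0%) at an unadjusted p under 0.05; edgeR called 0 with 3, 4 and 0, and DESeq2 called 1, 1 and 0. Btg2, an antiproliferative gene, was at 4610, 6375 and 2675 in thymus, at 1840, 2498 and 1545 in liver and at 1649, 3041 and 1969 in spleen. Thymus exceeded liver in all libraries (-1.16, limma adjusted p = 0.3). Tsc1, a restraint on growth signalling, was at 1827, 5694 and 1732 in thymus, at 1362, 975 and 546 in liver and at 1543, 725 and 1420 in spleen, with no liver or spleen library above a thymus library.

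G2 and mitosis genes separated liver from thymus further than the replication genes did in their medians. Of 37, limma called 0, with 15 (40.5%, all higher in liver, against 7.72% of all genes), 6 (16.2%, against 11.7%) and 2 (5.4%, against 3.03%) at an unadjusted p under 0.05. edgeR called 0 with 12, 6 and 3 (11%, 11.1% and 2.7% of all genes), and DESeq2 called 7, 4 and 0 (3.98%, 4.4% and 0.198% of all genes). Their median log2 fold changes were 3.34, 1.68 and 1.26, beside 1.13, 0.58 and 0.44 for the 44 replication and S-phase genes; the difference between the lists was not tested. Mki67, the proliferation antigen, was at 1670, 2098 and 2380 in thymus, at 7015, 3813 and 7571 in liver and at 3278, 1522 and 5491 in spleen. All liver values exceeded all thymus values (fold change 1.53, SE 0.45, limma adjusted p = 0.2). Nuf2, a kinetochore gene, had 0, 2 and 1 reads in thymus and was at 265, 79.8 and 464 in liver and at 0.70, 30.9 and 128 in spleen. Smc2, a condensin subunit, had another order, at 4157, 5176 and 2516 in thymus, at 4762, 2029 and 3047 in liver and at 1013, 1733 and 1369 in spleen. Each spleen value was below each thymus and liver value (spleen to thymus -1.50, limma adjusted p = 0.186). Liver and thymus overlapped, with a fold change of -0.29 (limma adjusted p = 0.825).

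The E2F-type motif did not divide the 44 genes by tissue difference in a way that could be read. Members with a match (n = 13) had median log2 fold changes of 1.22, 1.49 and 0.16 between liver and thymus, spleen and thymus, and liver and spleen, and members with a window but no match (n = 23) had 1.07, 0.59 and 0.43. These are descriptions without a test. A match is a run of letters, and a window without it says nothing about binding of an E2F factor.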

How the data were processed

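The table holds the authors' deposited normalised read counts, treated as a signal because they are not whole numbers; the scaling is not given in the sources used here. Trimmomatic 0.33, TopHat2 2.1.0, HTSeq 0.6.1, edgeR and mm10 are named in the submitters' processing notes. Columns were matched to libraries by tissue and replicate number; the column of thymus replicate 2 has a prefix longer than the others, which no label explains. Low values lie on equal steps, and 93.5% of 15737 such values lay within 0.1 reads of a whole read (72.9% in liver replicate 3, whose reads are approximate). Symbols matched 13359 of 14004 gene identifiers.

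A count test had been planned with a fallback for normalised values, and the fallback was used: limma-trend (limma 3.58.1, R 4.3.3) on log2(value + 1), for genes at 1 or more in at least 3 samples, with all 9 libraries and a term per tissue, two-sided, Benjamini-Hochberg threshold 0.05. edgeR 4.0.16 and DESeq2 1.42.0 on recovered reads were alternatives, beside other pseudocounts, filters, scalings and left-out libraries. The procedure was tested on simulated data. Exon lengths (the union of all annotated exons of a gene) and overlaps came from GENCODE vM21, promoters from RefSeq (GRCm38.p6).

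The members and gene lists were chosen with earlier results of these data known. Values in every library are given for genes past the threshold, the 4 genes of lowest p per comparison, the 2 per role with the largest share of variance between tissues, and Pcna, Mcm2, Mcm5, Tyms, Rrm2, Ccne1, Ccne2 and E2f1. From each other list the 2 genes of lowest p are named; other genes given in every library were added after their values were seen. A gene outside the 44 that the naming rule selected, and a marker gene, are not reported here.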

Additional observations from a re-analysis of the deposited data

How the results depend on the processing

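Over 21 alternatives the number of the 44 genes past the threshold stayed at 0 in the spleen to thymus and liver to spleen comparisons, and at 0 in 20 of 21 between liver and thymus; leaving out single libraries gave 0 to 2 there, the 2 being Mcm3 and Rpa2 (7.02, limma adjusted p = 0.0445) without thymus replicate 3. Leaving out single libraries moved the difference in mean log2 value between 0.77 and 1.97 for liver and thymus, 0.11 and 1.35 for spleen and thymus, and 0.29 and 1.21 for liver and spleen. The log2 of summed values gave 0.17 for liver and thymus. With thymus replicates 1 and 2 both left out, an alternative chosen after seeing the data in which the lone thymus library is assumed to vary like the other tissues, these differences were 0.02 for liver and thymus and -0.60 for spleen and thymus, and Mcm7 was -0.15 between spleen and thymus. The cause was not tested.

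With the replicate number as a block, 0 of the 44 genes passed in each comparison, and Rpa2 had an adjusted p of 0.241 between liver and thymus. The labels do not define the replicate number, so it was not taken as pairing in the main fit. Deviations of same-numbered libraries from their tissue means correlated by -0.0007 to 0.0891 across genes. Those of differently numbered libraries correlated by -0.0866 to 0.0484. Low correlations of such deviations cannot exclude a pairing. As a hint from the data and not the design, the best correlation of a library with those of another tissue was with the same number in 13 of 18 combinations, and Xist was highest in the library numbered 2 of each tissue. Depth limits liver replicate 3, with 3877694 reads, most.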
